A study of Arabidopsis thaliana with 24 samples.

Results

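The miRNA miR824 was followed through both mature strands of its precursor, miR824-5p (ath-miR824-5p in the tables) and miR824-3p (ath-miR824-3p), in small RNA libraries of Arabidopsis seedlings. Both were chosen by family number among 350 mature sequences listed for every library, which gave 2 of 350. The choice was made with the ABA comparisons of these sequences known, so the levels with and without ABA are given as a description, without p-values. Seedlings were 2 weeks old and of the Columbia background: the wild type was WT Col-0, and T-DNA insertions defined the lines abi1td, mkkk17, and mkkk18. Each of the 4 genotypes received mock treatment or 100 µM abscisic acid (ABA) for 4 h. The 8 groups that resulted had 3 biological replicates each, or 24 libraries in all. Each gene was represented by 1 insertion line, and whole seedlings were used, so fewer cells that make a miRNA and less of it per cell cannot be told apart. The mRNAs of ABI1, MAPKKK17, MAPKKK18, and AGL16 are not read by small RNA sequencing, so neither the insertions nor the target could be checked in these data.

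ABI1 is a PP2C phosphatase that restrains ABA signaling, and MAPKKK17 and MAPKKK18 are closely related kinases that act downstream of the core ABA pathway. A plant miRNA is cut by DCL1 from a folded transcript as a duplex of 2 strands, and usually 1 of them is loaded into an Argonaute protein as the guide while the other is removed. In miR824 the 5p strand is the known guide. It directs cleavage of the mRNA of AGL16, a MADS-box transcription factor that delays flowering and takes part in the development of satellite stomatal complexes on the leaf. The 3p strand is the passenger of that duplex and has no target of similar standing.

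Both strands are shown because the results turn on the difference between them. The mature sequences are written as DNA from 5′ to 3′, with bases 2 to 8, the seed, in capitals.
miR824-5p: tAGACCATttgtgagaaggga
miR824-3p: cCTTCTCAtcgatggtctaga
Each has 21 nt and matched the TAIR10.1 genome at 1 place, 5p at chr4:12625128-12625148 and 3p at chr4:12625721-12625741, both on the plus strand. No other of the 350 sequences shared either seed. The 5p strand starts with T (U in the RNA), as did 56.3% of the 350 sequences, and the 3p strand starts with C, as did 9.14%. Argonaute 1, the main miRNA effector of plants, favors a 5′ U. GC content was 42.9% in 5p and 47.6% in 3p.

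The sides of the precursor stem, with the strand in capitals, show where both are cut. Each side was read with 15 flanking bases, on chromosome 4 of the same build.
5p side, chr4:12625113-12625163: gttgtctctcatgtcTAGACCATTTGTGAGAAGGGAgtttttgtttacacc
3p side, chr4:12625706-12625756: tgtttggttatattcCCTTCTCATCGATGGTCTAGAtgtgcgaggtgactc
They belong to the noncoding gene MIR824 (AT4G24415), annotated from 12625094 to 12625782 on the plus strand. In a fold of 644 nt with a predicted free energy of -169.0 kcal/mol, 18 of the 21 bases of 5p paired with 3p, 2 of them as G:U. From the start of 5p to the end of 3p the locus spans 614 nt, with 572 nt between the strands. That was the longest of 97 miRNA loci annotated with mature sequences at 2 start positions. Their median span was 93 nt and the next longest was 377 nt. In MIR161 and MIR869, which are among the 97, the annotated sequences overlap each other.

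**Figure D1:**
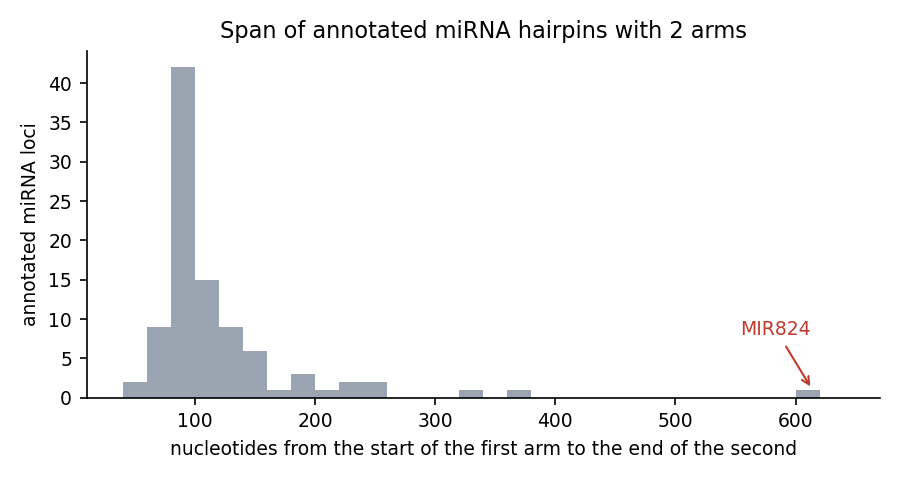
Number of annotated miRNA loci (vertical axis) by span in nucleotides (horizontal axis, bins of equal width) for 97 loci of the TAIR10.1 annotation. The span runs from the start of the first annotated mature sequence to the end of the second. MIR824 stands alone at 614 nt, beyond the next longest locus at 377 nt.

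The complementary site for miR824-5p in AGL16 (AT3G57230) lies on the plus strand of chromosome 3 and is shown with Watson-Crick pairs in capitals and the G:U pair in lower case.
AGL16 site, chr3:21180537-21180557: TCtCTTCTCACAAATGGTCTA
It has 0 mismatches and 1 G:U pair to the 5p strand. The site is in the last exon, which 4 of the annotated transcripts read as coding sequence and 1 as 3′ UTR. Transcripts of 27444 genes were searched with a penalty of 1 for a mismatch and 0.5 for a G:U pair, up to a sum of 3. That search found 4 genes for 5p, with AGL16 the closest apart from AT4G24413, which is annotated on the opposite strand of the MIR824 locus itself. For 3p it found 3 genes, and AGL16 was not among them. Such a match describes the letters only and shows no cleavage.

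Values were deposited as RPM, the reads of a sequence scaled to a fixed total of reads. Libraries held from 6127364 to 14199469 clipped reads, at which 3 reads are 0.211 to 0.49 RPM, far below either strand. Counting error alone came to 3.13% to 9.33% of the value of 5p and 1.77% to 4.34% of that of 3p. These shares cover counting error only. All 350 sequences together took from 16515 to 78277 RPM. The lowest sums were those of mkkk17 mock replicate 1 (16515 RPM) and replicate 2 (27393 RPM), against 41754 RPM in mock replicate 3 and 48874 to 71634 RPM in the ABA libraries of mkkk17. To set libraries against each other, each was divided by its median-of-ratios factor, from 0.369 to 1.89 over the 24 libraries. Differences between libraries are given on that scale unless named as deposited or as rescaled within a genotype. In the latter case the factors were set over the 6 libraries of the genotype. A ratio of both strands within a library needs no rescaling.

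The passenger strand miR824-3p was more abundant than the guide in 24 of 24 libraries, and it was higher after ABA in every genotype. Deposited RPM of miR824-3p in WT Col-0 were 84.1, 119.4, and 126.5 in mock and 156.4, 331.0, and 310.5 in ABA libraries. In abi1td they were 126.0, 78.7, and 85.5 in mock and 367.1, 228.6, and 254.8 after ABA. Libraries of mkkk17 held 38.3, 54.2, and 111.3 RPM in mock and 330.6, 444.2, and 359.9 RPM after ABA. In each of these genotypes the lowest ABA library lay above the highest mock library. The values in mkkk18 were 166.7, 141.7, and 116.8 RPM in mock and 470.3, 270.0, and 249.8 RPM after ABA, again without overlap. Of all miRNAs tested, rescaled as described above, 29.6% lay so in WT Col-0, and 14.7% in abi1td, 8.53% in mkkk17, and 14.3% in mkkk18 did the same.

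After rescaling, miR824-3p separated the treatments across genotypes. How many of the other miRNAs tested did so was not counted. The 12 mock libraries lay between 86.9 and 110.5 rescaled RPM (median 99.4) and the 12 ABA libraries between 210 and 388 rescaled RPM (median 268), so that the lowest ABA library was 1.90 times the highest mock library. By group mean, the mock order was WT Col-0 (90.4 ± 3.94 rescaled RPM, SD, n = 3), abi1td (97.0 ± 6.96), mkkk17 (103 ± 3.08), and mkkk18 (107 ± 6.51). The ABA order was mkkk17 (232 ± 21.0 rescaled RPM), mkkk18 (278 ± 86.9), abi1td (304 ± 31.8), and WT Col-0 (315 ± 70.4). Neighbors in each order overlapped, and the one gap in the order was that between mock and ABA groups.

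The guide strand miR824-5p was lower after ABA in WT Col-0, while in the mutants its libraries overlapped or were higher after ABA. Deposited RPM of miR824-5p in WT Col-0 were 42.5, 59.7, and 50.2 in mock and 14.2, 22.7, and 23.6 in ABA libraries, without overlap. Of all miRNAs tested, on RPM rescaled within each genotype, 36.8% lay below mock in WT Col-0, against 17.1% in abi1td, 8.53% in mkkk17, and 6.77% in mkkk18. In abi1td the deposited RPM of miR824-5p were 45.4, 29.8, and 34.4 in mock and 78.7, 21.7, and 38.6 after ABA. These overlapped, and the ABA libraries held both the highest and the lowest value of that genotype. Libraries of mkkk17 held 8.3, 13.3, and 47.4 RPM in mock and 94.0, 141.9, and 70.0 RPM after ABA, all ABA libraries being higher. From deposited RPM limma called 48.8% of all miRNAs tested higher in mkkk17. On RPM rescaled within mkkk17, 8.53% of them lay above mock in all ABA libraries. The mkkk18 values of miR824-5p were 60.4, 45.7, and 46.7 RPM in mock and 56.5, 78.9, and 47.1 RPM after ABA, which overlapped.

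On the rescaled RPM, the 3 WT Col-0 ABA libraries held 22.4, 26.6, and 23.7 of miR824-5p. The 9 ABA libraries of the mutants held 32.3 to 75.2, without overlap. The share of all miRNAs tested that separated these libraries in the same way was not counted, so the split is not shown to be particular to miR824-5p. As deposited, abi1td ABA replicate 2 (21.7 RPM) lay within the WT Col-0 ABA range. The mock libraries of WT Col-0, abi1td, and mkkk18 lay between 34.9 and 45.3 rescaled RPM. In mkkk17 mock replicate 3 held 42.4 rescaled RPM and lay in that range, while replicates 1 and 2, the libraries with the lowest summed RPM, held 22.5 and 25.9. Those same libraries held 103.9 and 105.7 rescaled RPM of miR824-3p, next to 99.7 in replicate 3. By group mean, WT Col-0 ABA was lowest (24.2 ± 2.14 rescaled RPM), followed by mkkk17 mock (30.3 ± 10.7), abi1td mock (36.8 ± 2.28), mkkk18 mock (38.4 ± 2.39), WT Col-0 mock (42.1 ± 4.04), abi1td ABA (45.6 ± 14.7), mkkk18 ABA (51.7 ± 12.7), and mkkk17 ABA (61.3 ± 13.2). Every pair of neighbors in this order overlapped.

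**Figure D2:**
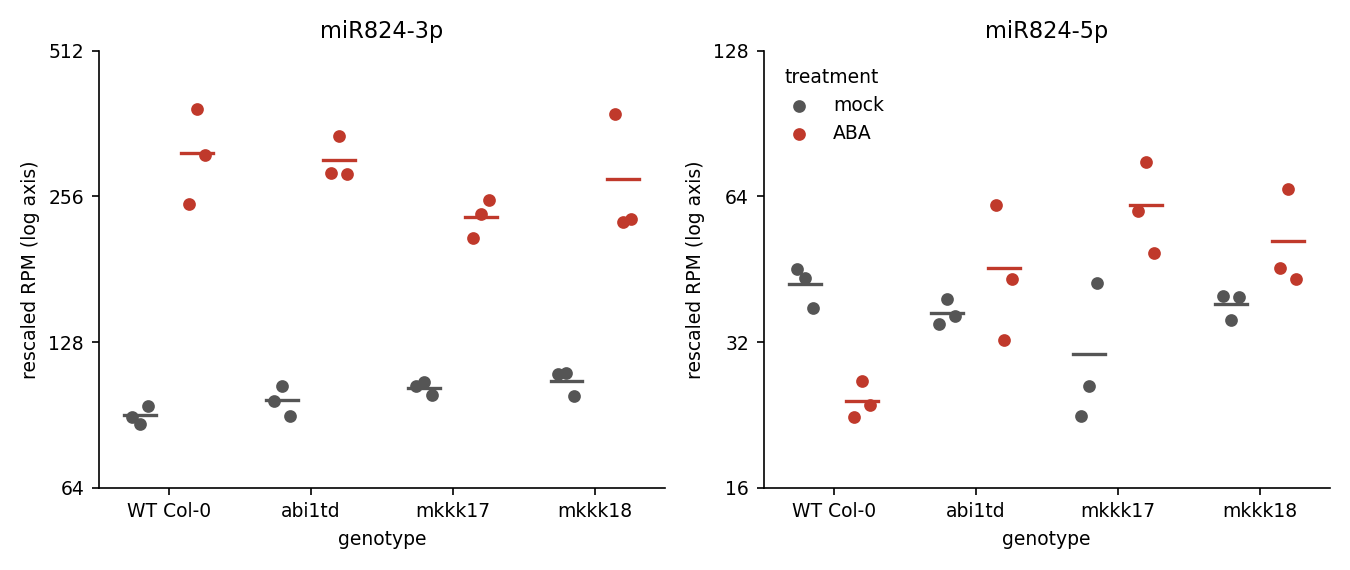
Rescaled RPM (log axis) of miR824-3p on the left and miR824-5p on the right in each of 24 libraries, by genotype, with mock in gray and ABA in red; each point is 1 library and each short line the mean of 3. The 12 ABA libraries of miR824-3p lie at 210 or above and the 12 mock libraries at 110.5 or below, while miR824-5p is lowest in WT Col-0 ABA (22.4 to 26.6) and in 2 mkkk17 mock libraries (22.5 and 25.9).

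The ratio of miR824-3p to miR824-5p lay between 1.98 and 4.61 in the 12 mock libraries and between 3.13 and 14.6 in the 12 ABA libraries, highest in WT Col-0. In WT Col-0 the 3p to 5p ratio was 1.98, 2.00, and 2.52 in mock and 11.0, 14.6, and 13.2 in ABA libraries, where 34.9% of all loci with both strands measured had a ratio above mock in every ABA library. In abi1td, where 16.3% did so, the ratio was 2.78, 2.64, and 2.49 in mock and 4.66, 10.5, and 6.60 after ABA. Neither genotype showed overlap. Among the abi1td ABA libraries, the one with the lowest ratio held the most miR824-5p and the one with the highest ratio the least. For mkkk18, where 6.98% did so, the ratio was 2.76, 3.10, and 2.50 in mock and 8.32, 3.42, and 5.30 after ABA, also without overlap. In mkkk17 it was 4.61, 4.08, and 2.35 in mock and 3.52, 3.13, and 5.14 after ABA, and the groups overlapped. The WT Col-0 ABA libraries lay above all other 21 libraries, the nearest being abi1td ABA replicate 2 at 10.5. At how many other loci these libraries lay apart from all others was not counted.

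Put as shares, miR824-5p made up 28.4% to 33.6% of the RPM of both strands in WT Col-0 mock and 6.42% to 8.32% in WT Col-0 ABA libraries. The sum of both strands in WT Col-0 was 130 to 135 rescaled RPM in mock and 269 to 414 after ABA. It was 126 to 143 and 328 to 373 in abi1td, 126 to 142 and 269.8 to 311 in mkkk17, and 139 to 150 and 273 to 424 in mkkk18, so that the ABA libraries lay above mock in all genotypes. From deposited RPM the sums of WT Col-0 overlapped (126.6 to 179.1 in mock and 170.6 to 353.7 after ABA), and those of the mutants did not.

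**Figure D3:**
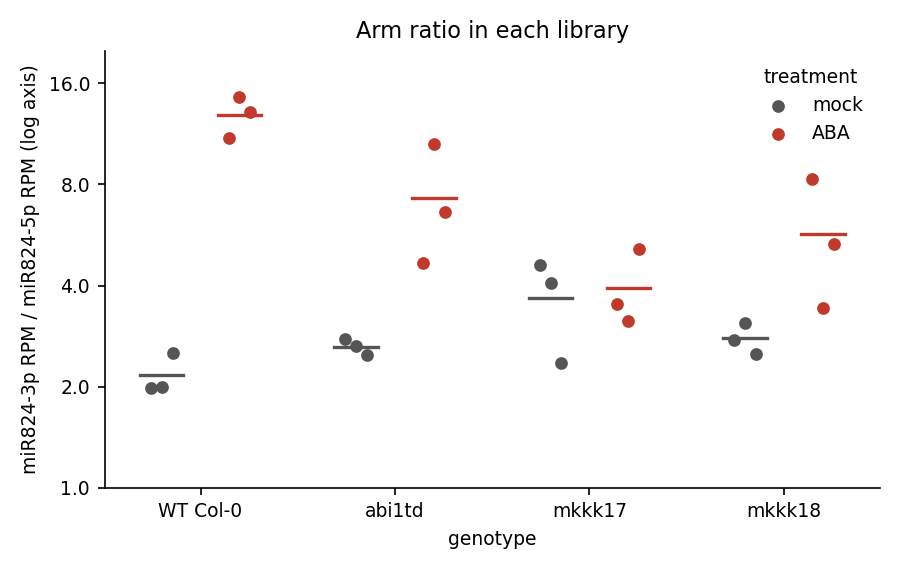
Ratio of the deposited RPM of miR824-3p to miR824-5p (log axis) in each library by genotype, with mock in gray, ABA in red, and the mean of 3 libraries as a short line. WT Col-0 ABA libraries lie at 11.0 to 14.6 and the 12 mock libraries at 1.98 to 4.61; in mkkk17 the ABA and mock points overlap.

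The size of these differences was taken within each genotype on log2(rescaled RPM + 0.5), with scaling factors set over the 6 libraries of the genotype. For miR824-3p, ABA minus mock was 1.73 in WT Col-0 (SE 0.24), 1.68 in abi1td (SE 0.21), 1.21 in mkkk17 (SE 0.27), and 1.38 in mkkk18 (SE 0.30) on the log2 scale. The ABA libraries lay above the mock libraries in all 4. Ordered from the most positive difference, miR824-3p was number 5 of 125 in WT Col-0, 1 of 129 in abi1td, 2 of 129 in mkkk17, and 4 of 133 in mkkk18. Both strands passed the filter on low values (mean RPM of 1 or more). The median difference of all miRNAs tested lay between -0.10 and 0.02. From deposited RPM the difference of miR824-3p was 2.60 in mkkk17 and 1.22 in WT Col-0. On rescaled RPM it was 1.22 in mkkk17 with mock replicate 3 alone, in a fit with the libraries of all genotypes. With every library kept, such a fit gave 1.17.

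For miR824-5p, ABA minus mock was -0.83 in WT Col-0 (SE 0.25), 0.30 in abi1td (SE 0.29), 1.08 in mkkk17 (SE 0.34), and 0.44 in mkkk18 (SE 0.30) on the log2 scale. All ABA libraries were below mock in WT Col-0. They overlapped in abi1td and lay above mock in mkkk17 and, after rescaling, in mkkk18. The WT Col-0 value moved to -1.33 with deposited RPM and to -0.27 with a correction for the GC content of the mature sequences. With mock replicate 3 as the only mock library of mkkk17, its value was 0.51, so the larger difference there rested on mock replicates 1 and 2. That value came from a fit with the libraries of all genotypes, whose scaling factors differ from those within mkkk17. From deposited RPM it was 2.45.

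The difference of the mean log2 ratio of both strands, ABA minus mock, was 2.58 in WT Col-0 (SE 0.16), 1.38 in abi1td (SE 0.34), 0.12 in mkkk17 (SE 0.37), and 0.94 in mkkk18 (SE 0.38). On the linear scale these are 5.96, 2.61, 1.09, and 1.92 times. The mkkk17 value turned to the other sign without mock replicate 3 or without ABA replicate 3 (-0.18 to 0.31 over single libraries left out) and was 0.71 with mock replicate 3 alone. Relative to WT Col-0 the ratio differed by -1.19 in abi1td (SE 0.38), -2.46 in mkkk17 (SE 0.40), and -1.64 in mkkk18 (SE 0.41), with -1.87 in mkkk17 from mock replicate 3 alone.

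The distance of the mutants from WT Col-0 was larger for the guide strand than for the passenger. It was taken from 1 fit of all 24 libraries. The scaling factors there differ from those set within a genotype, so the values above do not subtract to it. For miR824-5p the ABA minus mock difference exceeded that of WT Col-0 by 1.04 in abi1td, 1.82 in mkkk17, and 1.18 in mkkk18 (SE 0.38 each). From deposited RPM these were 1.50, 3.78, and 1.57. With mock replicate 3 alone the mkkk17 value was 1.31. For miR824-3p the same values were -0.13, -0.61, and -0.43 (SE 0.32 each). With deposited RPM these were 0.33, 1.38, and -0.05, so their sign depended on the rescaling in abi1td and mkkk17. Without WT Col-0 ABA replicate 2 the abi1td value was 0.062. These comparisons share the WT Col-0 libraries.

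**Figure D4:**
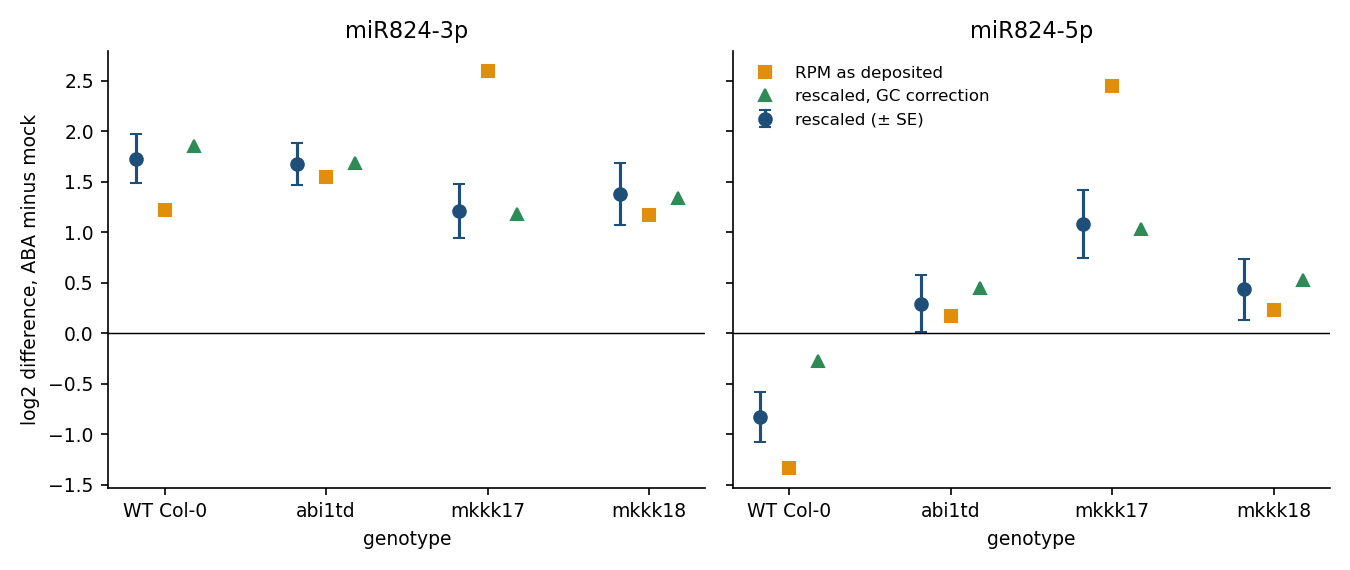
ABA minus mock difference on the log2 scale (vertical axis) of miR824-3p on the left and miR824-5p on the right in each genotype; circles are rescaled RPM with bars of 1 SE, squares RPM as deposited, and triangles rescaled RPM after GC correction. On the rescaled values miR824-3p is at 1.21 to 1.73 in all genotypes, while miR824-5p runs from -0.83 in WT Col-0 to 1.08 in mkkk17.

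Mutants were next compared with WT Col-0 without ABA, tested with limma over 129 miRNAs, with Benjamini-Hochberg adjustment. Both strands were chosen with earlier results of these data known. The p-values here and for the mock ratio are therefore not independent of that choice. Neither strand differed at an adjusted p-value of 0.05 in any mutant. For miR824-3p the difference was 0.10 in abi1td (adjusted p = 0.927), 0.19 in mkkk17 (adjusted p = 0.674), and 0.24 in mkkk18 (adjusted p = 0.585) on the log2 scale (SE 0.22 each). The rescaled mock libraries of mkkk17 and of mkkk18 lay all above the 3 of WT Col-0, as did 19.4% and 17.8% of the miRNAs tested. For miR824-5p it was -0.19 in abi1td (adjusted p = 0.924), -0.52 in mkkk17 (adjusted p = 0.269), and -0.13 in mkkk18 (adjusted p = 0.820; SE 0.27 each), with overlap in each mutant. In mkkk17 the difference of miR824-5p was -1.1e-05 on the log2 scale with mock replicate 3 alone, and -1.50 from deposited RPM, where limma called it (adjusted p = 0.0254) along with 31.8% of all miRNAs tested. Of all miRNAs tested in limma on rescaled RPM, 1 was called in abi1td (0.775%), 1 in mkkk17 (0.775%), and 0 in mkkk18 (0.0%), where 18.6% had an unadjusted p-value under 0.05. The 3 contrasts share the WT Col-0 mock libraries.

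The mock ratio of both strands was also compared, on log2 values of each library. It exceeded that of WT Col-0 by 0.29 in abi1td (SE 0.12), 0.72 in mkkk17 (SE 0.32), and 0.37 in mkkk18 (SE 0.14). All 3 overlapped with WT Col-0 (exact permutation test, two-sided, p = 0.2 each and 0.2 after adjustment over the 3 mutants, where 0.1 is the smallest p that 3 against 3 libraries allow). With mock replicate 3 alone the mkkk17 value was 0.13.

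To see how common such a shift between strands was, the ratio was followed in the 43 loci whose strands both had a mean of at least 1 RPM, with 0.5 RPM added to each strand. Of these pairs, 23 share an entry with another pair, so they are not separate measurements. In WT Col-0, 15 pairs (34.9%) had a higher 3p to 5p ratio in all ABA libraries and 7 (16.3%) a lower one. In abi1td 7 were higher (16.3%) and 2 lower (4.65%), in mkkk17 2 were higher (4.65%) and 5 lower (11.6%), and in mkkk18 3 were higher (6.98%) and 5 lower (11.6%). In the order from the most positive change, miR824 was number 4 in WT Col-0, number 3 in abi1td, number 11 in mkkk17 (number 18 without ABA replicate 1), and number 6 in mkkk18. The median change of all pairs was 0.21, 0.03, -0.11, and -0.10 in the same order.

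The pairs with the most extreme changes differed between genotypes. In WT Col-0 they were miR157a, whose guide acts on SPL transcription factor mRNAs, with 3.21, and miR393a, whose guide acts on auxin receptor mRNAs, with -3.20 on the log2 scale. In abi1td they were miR2111b, a family known for its response to phosphate, with 1.77, and miR393b with -1.21. In mkkk17 they were miR171b, which acts on GRAS factor mRNAs, with 1.47, and in mkkk18 miR398a, which acts on mRNAs of copper/zinc superoxide dismutases, with 1.43. At the other end miR167a, which acts on the auxin response factors ARF6 and ARF8, had -1.42 in mkkk17 and -1.26 in mkkk18. The strands of miR171b (5p 2.41 and 3p 2.89 RPM on average) and miR398a (1.42 and 2.59 RPM) were low. Neither pair passes a filter at a mean of 5 RPM. GC content moved with the ratio in part: the difference in GC between strands (4.76 percentage points for miR824) and the change of the ratio had a Pearson r of 0.41 over the 43 pairs in WT Col-0 and 0.26, -0.08, and 0.30 in abi1td, mkkk17, and mkkk18. Among the 18 other pairs whose GC difference was within 5 points of that of miR824, the WT Col-0 changes ran from -1.42 to 3.21 with a median of 0.44. The part of GC content in the miR824 values was not tested beyond the correction named above.

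**Figure D5:**
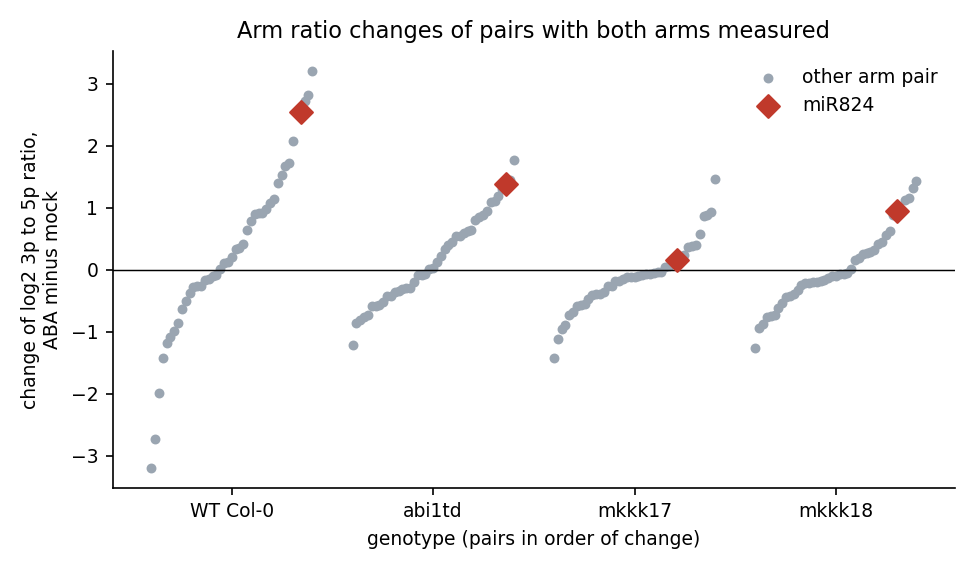
Change of the log2 ratio of 3p to 5p (vertical axis, ABA minus mock) of 43 strand pairs in each genotype, in order of change along the horizontal axis, with miR824 as a red diamond. From the top, miR824 is number 4 for WT Col-0, number 3 for abi1td, number 11 for mkkk17, and number 6 for mkkk18.

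The miRNAs whose levels were most like those of each strand were taken by Pearson r of log2 values over the 24 libraries, among 128 others. For miR824-3p these were miR408-5p (r = 0.88), the passenger of a copper-responsive miRNA, miR2111b-3p (0.80), miR394b-5p with miR394a (0.78), which acts on the F-box gene LCR, miR156f-3p (0.78), and the guide miR408-3p (0.77). The median r of miR824-3p with all others was -0.17. Within groups, after the group means were taken off, r with miR824-3p was 0.13 for miR408-5p, 0.17 for miR2111b-3p, 0.63 for miR394b-5p, 0.39 for miR156f-3p, and 0.77 for miR408-3p. For miR824-5p the closest were miR397b (0.72), which acts on laccase mRNAs, miR157d (0.71), miR5026 (0.66), miR846-5p (0.66), and miR161.2 (0.64), which acts on PPR gene mRNAs, with a median over all others of 0.01. No miRNA was among the closest of both strands. The strands themselves had r = 0.11 with each other, number 55 of 128 for miR824-3p, and -0.23 within groups. The points share libraries and their scaling, so these values are descriptions.

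AGL16 acts on flowering time, so other miRNAs known for phase change or flowering were examined beside miR824. The list held 39 entries of the families miR156, miR157, miR159, miR169, miR172, miR319, and miR399. In WT Col-0, 26 were measured well enough to test, and limma called 9 higher and 6 lower after ABA while 11 did not pass. Over all miRNAs tested there, 26.4% were called higher and 33.6% lower. The median difference was -0.13 for the list and -0.10 for all. The entries that rose included the 3p strands miR156f-3p (2.57 on the log2 scale, SE 0.34, adjusted p = 1.4e-05) and miR157a-3p with miR157b-3p (1.86, SE 0.23, adjusted p = 9.2e-06), each higher in all 3 ABA libraries. The level of miR156f-3p was low, with a mean of 3.45 RPM over the 24 libraries. Entries that fell included the miR157 guide entry, miR157b-5p with miR157a-5p and miR157c-5p (-1.34, SE 0.25, adjusted p = 0.000404), lower in all 3. For the miR156 guide entry, which joins miR156a-5p to miR156f-5p, the difference was -0.03 (SE 0.25, adjusted p = 0.928), with overlap. From deposited RPM limma called 5 entries higher, with 7.2% of all miRNAs. Without WT Col-0 mock replicate 3, limma called 2 entries lower.

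In the mutants the list gave few calls. In abi1td and in mkkk17 none of 24 entries tested was called by limma, where 1.55% and 0.775% of all miRNAs were called higher and 0.0% and 2.33% lower. An unadjusted p-value under 0.05 was found for 2 entries in each. Without mkkk17 mock replicate 3, limma called 1 entry higher in mkkk17. From deposited RPM it called 13 higher there, with 48.8% of all miRNAs called higher. In mkkk18 limma called 1 of 27 entries, miR156f-3p, which was higher after ABA (1.45, SE 0.34, adjusted p = 0.0354), where 2.26% of all miRNAs were called higher and 0.752% lower. That call was lost without ABA replicate 1, mock replicate 1, or mock replicate 3, and under 6 alternatives of the processing. Medians of the list were -0.07, -0.01, and 0.09 in abi1td, mkkk17, and mkkk18, and those of all miRNAs tested -0.08, 0.02, and -0.03. Whether the list responded differently between genotypes was not tested.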

How the data were processed

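Small RNA of 24 libraries was sequenced from TruSeq libraries on an Illumina HiSeq. The authors clipped adapters, dropped reads without an adapter or under 16 nt, kept reads with 95% of bases at a Phred score of at least 20, and assigned reads to miRBase 22 entries with mirPRo. Values were deposited as RPM rounded to 1 decimal, with replicates apart and no rescaling. The total behind the RPM is not given in the sources used here. Whole reads could not be recovered, so no count test was run, and precision was taken from the clipped reads that the study lists.

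Libraries were put on a common scale with median-of-ratios factors, taken from miRNAs above 0 in each library of a fit. For miRNAs averaging 1 RPM or more, log2(rescaled RPM + 0.5) was fitted with limma 3.58.1 in R 4.3.3 (empirical Bayes, trend). On that scale the differences of low miRNAs are understated. ABA and mock libraries were compared genotype by genotype, and mutants with WT Col-0 in a fit of 24 libraries, with Benjamini-Hochberg adjustment and calls at an adjusted p-value under 0.05. The script was tested on simulated data. Ratios and exact permutation tests used Python 3.11.15 and SciPy 1.17.1. Sequences were matched exactly to TAIR10.1 (RefSeq), whose build the authors do not name, and folded with RNAfold 2.7.2.

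Groups and replicate numbers were read from the labels, and nothing there ties equal numbers to a shared culture or run. The members and lists were chosen with earlier results of these data known. Besides the members, the miRNAs named are the 5 most correlated with each strand, the pairs with the most positive and most negative ratio change in each genotype, and up to 2 called entries of the flowering list with the smallest adjusted p-values. The guide entries of miR156 and miR157 were added after their values were seen. Alternatives were unscaled RPM, scaling by a trimmed mean of log ratios, other pseudocounts (0.1 or 1), other filters (none, or a mean of 5 RPM), a block for the replicate number, a straight-line correction for GC content, that correction with the block, 1 fit of all libraries, and the removal of each library in turn. Leaving out mkkk17 mock replicates 1 and 2 together was chosen after seeing the data. The values of each strand without them came from 1 fit of all other libraries.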

Additional observations from a re-analysis of the deposited data

Results flagged for a closer look

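The ABA minus mock difference of miR824-5p had opposite directions in WT Col-0 and in 2 mutants, with every library of each genotype on its side. In mkkk17 it was 1.08 and in WT Col-0 -0.83 on the log2 scale of rescaled RPM. In mkkk18 it was 0.44 against the same -0.83 in WT Col-0. Of all miRNAs tested on RPM rescaled within each genotype, 36.8% lay below mock in WT Col-0. In mkkk17 8.53% lay above mock, and in mkkk18 14.3%. The WT Col-0 value was smaller in size with GC correction. That of mkkk17 was smaller with mock replicate 3 as its only mock library. As deposited, the mkkk18 libraries overlapped. The difference between genotypes was not tested.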

How the results depend on the processing

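Of 356 values recomputed with another choice for 53 results, 297 counted as unchanged. Mock tests of each strand had to keep their direction and side of the threshold, whatever the size of the move. Other differences had to keep their direction and move by less than the replicate spread. Counts and places in an order had to stay within a set ratio. Deposited RPM moved most. ABA minus mock of miR824-3p was then 1.22 in WT Col-0 and 2.60 in mkkk17, and that of miR824-5p -1.33 and 2.45. Relative to WT Col-0, the difference of miR824-3p was 0.33 in abi1td, 1.38 in mkkk17 (both of the other sign), and -0.045 in mkkk18. That of miR824-5p was 1.50, 3.78, and 1.57. In mock, miR824-3p differed by -0.19 in abi1td and -0.81 in mkkk17 (both of the other sign), and miR824-5p by -1.50 in mkkk17 (limma, adjusted p = 0.0254) and 0.0057 in mkkk18 (other sign). With the trimmed mean, miR824-3p in abi1td mock was -0.00065. GC correction gave -0.27 for miR824-5p in WT Col-0, and 1.36 in mkkk17 and 0.85 in mkkk18 relative to WT Col-0, with or without the replicate block. With mkkk17 mock replicate 3 alone, miR824-5p was 0.51 in mkkk17 and 1.31 relative to WT Col-0, and the log2 ratio 0.71, -1.87 relative to WT Col-0, and 0.13 in mock. The cause of these moves was not tested.

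Counts moved too. miRNAs called in mock by limma numbered 0, 41, and 1 in abi1td, mkkk17, and mkkk18 with deposited RPM. GC correction gave 4 in mkkk17 and in mkkk18. No filter, a pseudocount of 1, and the trimmed mean each gave 0 in abi1td, mkkk17 mock replicate 3 alone gave 0 in mkkk17, and a mean of at least 5 RPM gave 2 in mkkk18. Flowering entries called higher were 5 in WT Col-0, 13 in mkkk17, and 0 in mkkk18 with deposited RPM, and 0 in mkkk18 with a fit of all 24 libraries, no filter, or at least 5 RPM. Strand pairs with both means at 5 RPM or more were higher without overlap in 8, 4, and 0 (WT Col-0, abi1td, mkkk17) and lower in 4, 1, 3, and 2 (mkkk18 last), and miR824 was number 7 in mkkk17 and 3 in mkkk18. A pseudocount of 0.1 gave 4 higher pairs in mkkk17 and number 6 for miR824 in abi1td.

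With single libraries left out, the log2 ratio in mkkk17 ranged from -0.18 to 0.31, negative without mock or ABA replicate 3, and miR824-3p in abi1td relative to WT Col-0 from -0.29 to 0.062, positive without WT Col-0 ABA replicate 2. No other difference of the strands or their ratio changed sign. miRNAs called in mock by limma ranged from 0 to 2 in abi1td, 1 to 4 in mkkk17, and 0 to 4 in mkkk18. Higher pairs ranged from 15 to 19, 8 to 15, 2 to 4, and 4 to 7 in WT Col-0, abi1td, mkkk17, and mkkk18, and lower pairs from 7 to 11, 3 to 9, 5 to 11, and 5 to 8, where fewer libraries make overlap rarer. The place of miR824 ranged from 2 to 5 in abi1td and from 9 to 18 in mkkk17. Flowering entries higher ranged from 0 to 1 in mkkk17 and mkkk18, and entries lower in WT Col-0 from 2 to 6.

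For same-numbered mock and ABA libraries, the mean correlation of their deviations was -0.19, -0.07, -0.16, and 0.15 in WT Col-0, abi1td, mkkk17, and mkkk18. Single values ran from -0.31 (mkkk17 replicate 1) to 0.49 (mkkk18 replicate 3). With 3 libraries in each group, these values cannot show whether equal numbers were paired. The replicate block gave 0 miRNAs called in abi1td mock and 0 flowering entries in mkkk18. With GC correction as well it gave 0, 6, and 4 miRNAs called in mock and 0 flowering entries in mkkk18. It changed no direction or call of either strand.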
